A study of Mus musculus with 4 samples.

Results

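ATF4 binding just upstream of the annotated starts of coding transcripts was examined in mouse regulatory T cells. The series holds 2 ATF4 chromatin immunoprecipitates and 2 inputs of CD4+CD25+ cells, made from 24000000 cells per replicate and fixed with 1% formaldehyde for 10 min. The tissue is labelled as spleen, and the design text adds lymph nodes. All 4 samples carry the same labels for tissue and cell type, and the sources used here give no genotype, sex or age. The deposited result used here was 1 list of 4544 peaks on build mm10, with no values per sample, so the peaks have no replicate error and the depth of the libraries is unknown. CD4+CD25+ cells are a selected fraction and can hold other activated T cells.

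Of the 4544 peaks, 278 were kept, or 6.12%. They were of the authors' Promoter class within 1 kb, lay wholly upstream of the start site of the assigned transcript, and had a transcript with an NM_ or XM_ accession. The members were assigned to 275 genes, and all 275 were typed as protein-coding in the RefSeq gene table. NM_ accessions, for known transcripts, were carried by 178 members, and XM_ accessions, for predicted ones, by 100. Coding promoter peaks that lay over the start site numbered 1693, and those just downstream of it 541. No test was made between these classes, since peaks of 1 list are not replicates, and the values are given as descriptions.

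ATF4 is a basic leucine zipper factor whose translation rises when the initiation factor eIF2 is phosphorylated under amino acid shortage or endoplasmic reticulum stress. It pairs with C/EBP proteins on composite elements and with other factors of the ATF and CREB families on cAMP response elements. In a promoter, the stretch just before the start holds the boxes read by general activators such as SP and ETS factors, and distal response elements lie further up.

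Bases were at hand for 133 members, from a RefSeq table (build GRCm38.p6) of 250 bases before to 50 after listed starts. The covered part reached at least 100 bases in 93 members and held the whole peak in 25. None of the 15 strongest members had 100 bases, and the strongest that did was that of Dyrk2 at a fold enrichment of 5.14, so the motif counts leave the strongest peaks out. Searched on both strands, the composite element TGATGNAAN was present in 2 of the 93, at Hax1 and Eif2s3x. The palindromic cAMP response element TGACGTCA was present in 3, at Zfand2a, Cenpe and Xpnpep3. Its core TGACG, which the palindrome contains, was present in 15. All 5 of these members with a full element are shown, followed by the 3 strongest peaks that held a core alone. The genes were chosen for their sequence after it was seen. Capitals mark TGATGNAAN, TGACG and TGANTCA on either strand, and each run is the covered part of the peak, written along the strand of the gene.
Hax1: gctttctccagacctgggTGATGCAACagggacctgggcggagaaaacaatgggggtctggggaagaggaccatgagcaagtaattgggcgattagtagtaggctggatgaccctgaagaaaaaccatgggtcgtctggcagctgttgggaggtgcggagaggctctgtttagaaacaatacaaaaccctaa
Eif2s3x: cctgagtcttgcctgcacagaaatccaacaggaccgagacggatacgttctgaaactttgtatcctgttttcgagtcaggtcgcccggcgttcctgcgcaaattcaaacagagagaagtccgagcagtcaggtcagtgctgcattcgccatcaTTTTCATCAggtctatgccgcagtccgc
Zfand2a: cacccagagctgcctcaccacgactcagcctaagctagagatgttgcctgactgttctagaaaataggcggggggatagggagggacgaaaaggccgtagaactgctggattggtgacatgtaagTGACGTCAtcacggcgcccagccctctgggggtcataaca
Cenpe: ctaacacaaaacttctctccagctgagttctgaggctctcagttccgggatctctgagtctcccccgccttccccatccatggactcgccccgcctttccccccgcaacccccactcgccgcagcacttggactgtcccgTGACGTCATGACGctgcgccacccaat
Xpnpep3: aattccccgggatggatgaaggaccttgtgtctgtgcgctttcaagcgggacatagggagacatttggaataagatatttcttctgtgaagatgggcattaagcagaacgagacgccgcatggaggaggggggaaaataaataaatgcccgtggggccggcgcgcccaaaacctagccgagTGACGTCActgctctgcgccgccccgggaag
Gart: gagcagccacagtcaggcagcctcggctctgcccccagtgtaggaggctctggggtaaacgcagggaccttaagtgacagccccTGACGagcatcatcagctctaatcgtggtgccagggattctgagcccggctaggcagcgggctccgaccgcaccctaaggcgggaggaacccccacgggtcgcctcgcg
Maml1: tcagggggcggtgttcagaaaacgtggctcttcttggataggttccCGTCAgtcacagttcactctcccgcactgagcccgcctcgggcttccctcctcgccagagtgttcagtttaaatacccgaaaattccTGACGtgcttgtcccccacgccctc
Naa15: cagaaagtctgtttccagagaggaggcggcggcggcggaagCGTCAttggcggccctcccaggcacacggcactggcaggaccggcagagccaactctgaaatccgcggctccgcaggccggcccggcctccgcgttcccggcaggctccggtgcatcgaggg

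Hax1, which encodes an anti-apoptotic mitochondrial protein, had a peak at a fold enrichment of 2.95 (chr3:89998150-89998341 for the bases shown, minus strand). Its composite element filled bases 19 to 27 of the stretch, 10 bases from the summit at base 37. Eif2s3x, the X-linked gene for the gamma subunit of eIF2, had a peak at 2.41 (chrX:94212721-94212901 for the bases shown, minus strand), with the element 49 bases from the summit. Of the palindromes, that of Xpnpep3, a mitochondrial aminopeptidase gene, lay 29 bases from the summit, and that of Cenpe, a kinetochore motor gene, lay 98 bases away. For Zfand2a, a stress-inducible zinc finger gene, the summit lay outside the bases at hand. In Gart, which encodes an enzyme of purine synthesis, the summit fell inside the core, at base 88 of a stretch in which it filled bases 85 to 89 (chr16:91647030-91647222, minus strand). In Maml1, a Notch coactivator gene, the nearer of both cores lay 6 bases from the summit, and in Naa15, a subunit gene of the N-terminal acetyltransferase complex, the core lay 41 bases away. The remaining stretches stand at chr5:139484577-139484741 (Zfand2a, minus), chr3:135212389-135212555 (Cenpe, plus), chr15:81399893-81400104 (Xpnpep3, plus), chr11:50292429-50292586 (Maml1, minus) and chr3:51415766-51415928 (Naa15, plus). The 8 peaks shown ran from 1.98 at Xpnpep3 to 4.22 at Gart, within the strengths that the bases at hand cover.

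Over the 93 members with at least 100 bases, the share with each motif was set beside the share of all 32851 promoters of the table that held it at the same positions. That reference includes promoters of genes silent in T cells, and none limited to active promoters was used. The composite element was as frequent as in all promoters, at 2.15% (95% exact interval 0.262 to 7.55) against 2.23%. The form TGATGCAA, part of the composite element, was found in 1.08% against 0.495%. The palindrome was found in 3.23% (0.67 to 9.14) against 0.707%, and the core in 16.1% (9.32 to 25.2) against 10.8%. Both intervals hold the reference. Within 100 bp of the summit, in 39 members, the palindrome was found in 2.56% against 1.29% and the core in 15.4% against 14.9%. Over whole promoters of 138 starts the palindrome was found in 2.9% against 1.79%. In 76 of the 93 members none of these motifs was present, which speaks only of the bases covered.

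The shares of the other motifs, among them the C/EBP and AP-1 sites, lay above those of all promoters for some and below for others. The GC box GGGCGG, the site of SP and KLF factors, was held by 40.9% of the members (30.8 to 51.5) against 21.3%. The ETS site CCGGAAG was held by 10.8% (5.28 to 18.9) against 3.54%. Peaks over the start showed the same for both, with 60.8% against 30.5% for the GC box and 18.2% against 7.12% for ETS, and the 22 covered peaks downstream had the GC box in 45.5% against 20.8%. In the other direction, the TATA box TATAAA was held by 1.08% against 8.14%, the C/EBP site TTGCNNAA by 1.08% against 6.85%, the AP-1 site TGANTCA by 1.08% against 4.63% and the CCAAT box by 14.0% (7.66 to 22.7) against 23.9%. TATA, C/EBP and AP-1 each rest on 1 of the 93 members (0.0272 to 5.85), an interval that holds the AP-1 reference. Over the start the shares were 8.22% against 9.51% for TATA and 4.02% against 7.17% for C/EBP. They were 3.25% against 5.41% for AP-1 and 23.2% against 28.2% for the CCAAT box. The E-box CACGTG was held by 2.15% against 3.67% (9.42% against 7.15% over whole promoters of 138 starts), the RUNX site TGTGGT by 8.6% against 9.84% (20.5% against 11.5% within 100 bp of the summit, in 39 members), the NRF1 site by 1.08% against 0.374% and the YY1 site by 0 of 93 members (upper limit 3.89%) against 0.151%. The median share of G and C was 63.3% in the covered parts (quartiles 56.9 and 70.9). In all promoters it was 52.7%, read over their full 300 bases and not at the same positions. The part of base composition in the motif shares was not tested. The covered parts of 1046 peaks over the start had the composite element in 3.54% and the core in 30.3%, against 2.76% and 16.1% of all promoters at their own positions. In the same 1046 peaks TGATGCAA was found in 1.91% (1.17 to 2.94) against 0.631%. The palindrome was found there in 3.63% (2.58 to 4.95) against 1.47%.

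**Figure D1:**
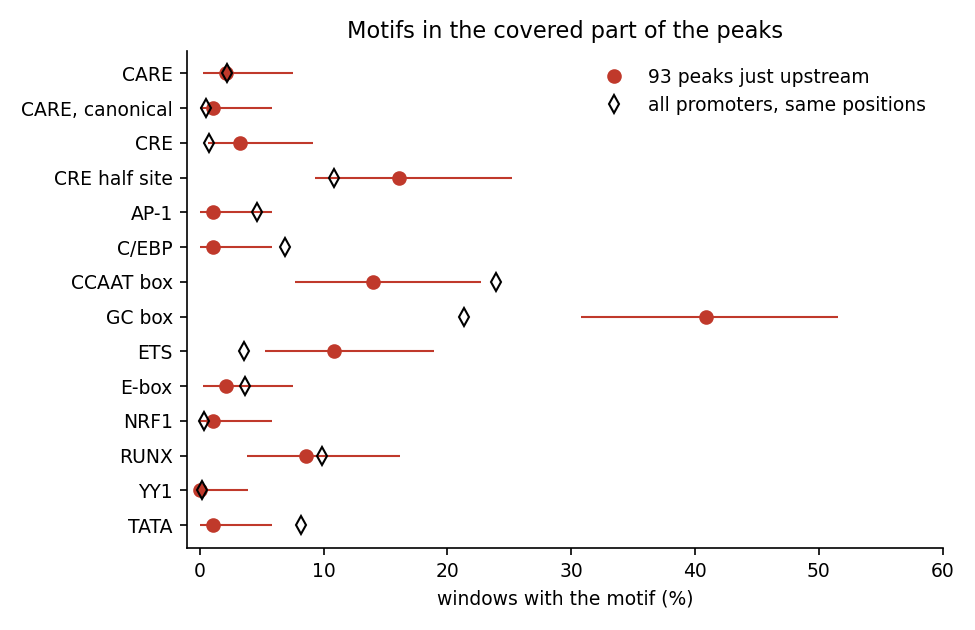
Share of windows with each motif, in percent. Red points are the covered parts of 93 peaks just upstream with their 95% exact intervals, and open diamonds are all promoters of the table read at the same positions. The GC box and the ETS site lie to the right of their diamonds, the TATA box, C/EBP site and CCAAT box to the left, and the composite element at 2.15% lies on its diamond at 2.23%.

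Most members lay close to the start. The near edge of the peak was 1 to 100 bp upstream in 113 members, 101 to 250 bp in 82, 251 to 500 bp in 53 and 501 to 1000 bp in 30. The summit lay a median of 241 bp upstream (quartiles 154 and 418), and it lay within 250 bp in 143 members. Just downstream of the start, 271 peaks had their near edge within 100 bp, 82 at 101 to 250 bp, 69 at 251 to 500 bp and 119 at 501 to 1000 bp. The counts up and down were thus equal only between 101 and 250 bp. Beyond 500 bp lay 10.8% of the upstream and 22.0% of the downstream peaks. Among the 1693 peaks over the start, 31.8% had the summit on the upstream side (95% exact interval 29.6 to 34.1).

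**Figure D2:**
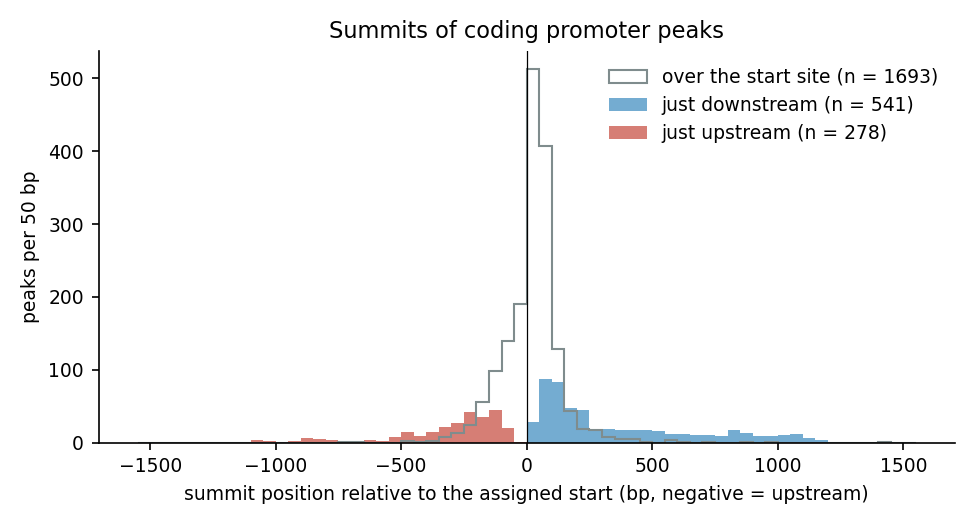
Summit position relative to the assigned start, in bp, against the number of peaks per 50 bp, for the 3 classes of coding promoter peaks. Peaks just upstream (red) spread with a median of 241 bp before the start, while peaks over the start (grey outline) have most summits after it, with 31.8% before it.

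Strength was lower than over the start and much like that just downstream. Members had a median fold enrichment of 2.94 (quartiles 2.51 and 3.61, range 1.79 to 14.0). Peaks over the start had a median of 3.32 (2.75 and 4.19) and peaks just downstream one of 2.94 (2.5 and 3.53), while the median of all peaks was 3.30. Of the members, 11 were among the strongest 10% of all peaks, at a fold of at least 5.34, or 3.96% of the members. Over the start the share was 12.2% and just downstream 4.44%. By −log10 q the order of the classes changed in part, with medians of 5.52 for members, 7.83 over the start and 4.59 downstream. A −log10 q of at least 3 was reached by 75.5% of the members, beside 76.9% of all peaks, and 11 members had a q over 0.05. Members were narrow, with a median width of 218 bp against 298 bp over the start and 220 bp downstream. The rule bears on this, since a wider peak near a start is more likely to reach over it and leave the members. The part of this sorting in the difference in strength was not tested.

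The strength of the members hardly moved with distance. The median fold enrichment was 2.87 at 1 to 100 bp, 3.0 at 101 to 250 bp, 2.99 at 251 to 500 bp and 2.95 at 501 to 1000 bp. Downstream of the start it was 2.84, 2.78, 3.08 and 3.26 over the same ranges. Among members, 171, or 61.5%, had both a fold enrichment and a −log10 q that at least 1 other peak of the list also had. The share was 59.2% of all peaks. Values thus come in steps, and small differences between them carry little. This holds for some strong members too, such as Dclre1c at 4.74, whose values 21 peaks have.

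**Figure D3:**
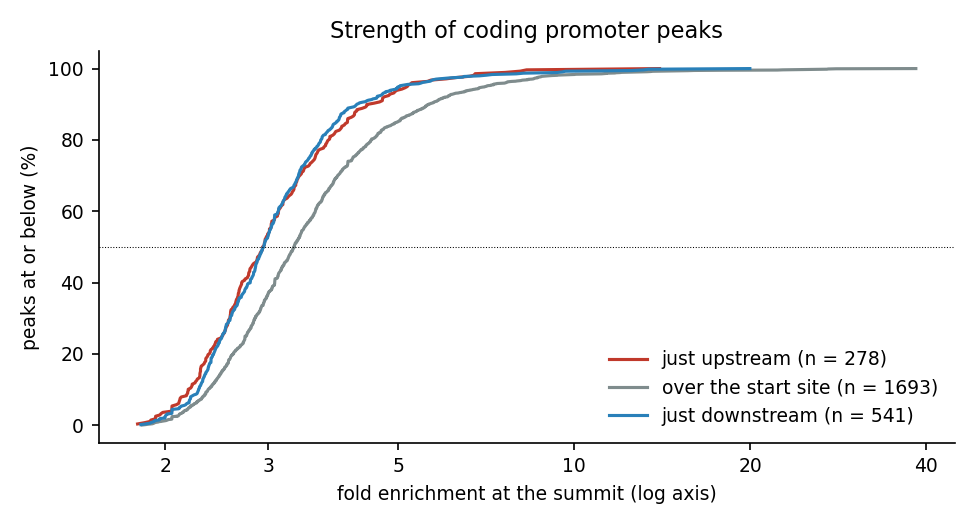
Cumulative share of peaks, in percent, by fold enrichment at the summit (log axis), for the 3 classes of coding promoter peaks. The curves just upstream and just downstream run together, with medians of 2.94, and the curve over the start lies to the right of them, with a median of 3.32.

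The strongest member stood well apart from the rest. It lay 443 bp upstream of Stk40, a pseudokinase gene related to the Tribbles family, at a fold enrichment of 14.0 and a −log10 q of 149 (chromosome 4, 126103097 to 126103499). Its fold was as high as or higher than that of 99.1% of all peaks, and the peak over the start of Stk40 had 3.08. Ing1, a chromatin reader gene of the inhibitor of growth family, followed at 8.29 with a −log10 q of 108 (chromosome 8, 11557688 to 11558142). Larp1, whose product binds mRNAs of the translation machinery downstream of mTORC1, had 8.09 (chromosome 11, 58008612 to 58008844). The peaks of Ing1 and Larp1 lay inside the spans of their own genes, before the starts of shorter transcripts.

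Known ATF4 targets and amino acid genes came next. Fgf21, a stress hormone gene, had a fold enrichment of 7.62 at 878 bp upstream (chromosome 7, 45616368 to 45616667). Ddit4, which encodes an inhibitor of mTORC1, had 6.77 at 956 bp upstream (chromosome 10, 59952726 to 59953053). Gpt2, the mitochondrial alanine transaminase gene, had 6.77 at 239 bp upstream (chromosome 8, 85492118 to 85492337). Fgf21 and Gpt2 had this 1 peak alone in the list, while Ddit4 had 5 peaks, of which the one over its start had 4.54. So at Stk40, Ing1 and Ddit4 the peak before the start was higher than the one over it.

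Further strong members lay at genes of varied function. Fnta, the shared alpha subunit gene of the farnesyl and geranylgeranyl transferases, had a fold enrichment of 6.63 at 28 bp upstream. The splicing regulator gene Rbm4 had 6.29, in a peak that also lay over Gm21992, and the scaffold gene Mpp7 had 6.05 inside its own gene. Klf6, a Krüppel-like factor gene, had 5.69 with a −log10 q of 65.9, and was assigned 5 peaks in all. Ap1m2, a clathrin adaptor subunit gene, had 5.61 with a −log10 q of 8.06. Sde2, a gene of splicing and genome maintenance, had 5.28. Sla, whose product dampens T cell receptor signalling, had 5.25 and lies within the span of Tg. Ran, the GTPase of nuclear transport, had 5.20, Syap1 5.19, the kinase gene Dyrk2 5.14 and Egln1, the oxygen sensor of the HIF pathway, 5.08.

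The rest of the 25 strongest ran from 4.97 down to 4.70. They were Uspl1, a SUMO protease gene, at 4.97, Endod1 at 4.94, the prostaglandin E2 receptor gene Ptger1 at 4.92, Hivep2 at 4.84, Atxn2 at 4.82, the V(D)J nuclease gene Dclre1c at 4.74, the PP2A subunit gene Ppp2r5a at 4.71 and the G protein subunit gene Gng2 at 4.70. Of the 25, 9 lay inside their own gene and 17 were the only peak assigned to it. Fold and q did not rank them alike. Dclre1c and Ptger1 had a −log10 q of 4.27 and 6.39, while Uspl1 and Ppp2r5a, at like folds, had 38.4 and 35.2. Tnks1bp1, among the 10 highest by −log10 q at 26.1, had a fold of 4.40.

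**Figure D4:**
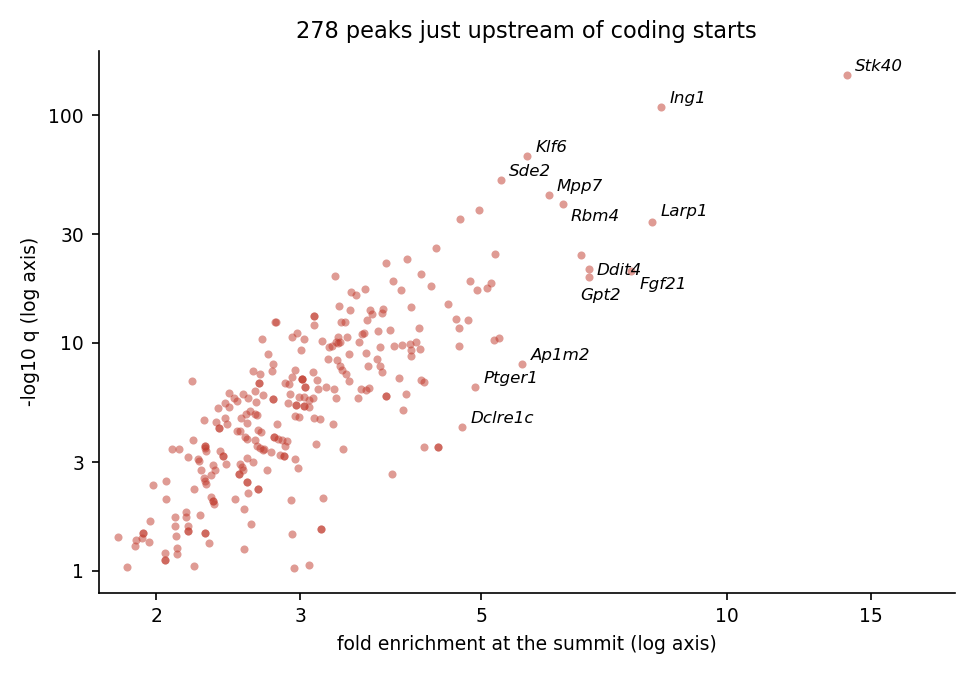
Fold enrichment at the summit against −log10 q, both on log axes, for the 278 peaks just upstream. Each point is 1 peak. Stk40 stands alone at 14.0 and 149, and Ap1m2, Ptger1 and Dclre1c have a low −log10 q for their fold.

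At the near edge of the rule, Xpnpep3 and Mob2, both 1 bp upstream, had fold enrichments of 1.98 and 4.0, and Brd2 at 2 bp had 2.56. Outside it, peaks that reached over the start by 2 or 3 bases were those of Cpsf6 at 2.39, Arid1a at 2.91 and Rab13 at 4.59. At the far edge, Gstp3 at 995 bp, Arrdc3 at 966 bp and Ddit4 at 956 bp had 2.98, 3.32 and 6.77, and beyond it Elmo3 at 1057 bp, Lrriq1 at 1191 bp and Actb at 1243 bp had 3.79, 4.48 and 2.84. Fosl2, Klf13 and Pced1b had 2 members each. These were 2.68 and 2.05 for Fosl2, 2.69 and 2.53 for Klf13, and 2.70 and 1.96 for Pced1b.

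The genes of the members were set beside 22 gene lists. Of 21883 protein-coding genes, 1.26% had a peak just upstream, and 0.955% had one with a −log10 q of at least 3. One at or above the median fold enrichment of all peaks was present in 0.443%. With every member counted, 17 of the 22 lists had at least 1 gene with a peak just upstream. Their shares all lay above the 1.26%, but list size fixes this, since 1 gene suffices even in the longest list, of 62. Each share rests on 1 to 4 genes, lists share genes, and the background includes genes silent in T cells. Over the start, 7.54% of protein-coding genes had a coding promoter peak, and just downstream 2.39%.

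Among 40 canonical ATF4 targets, 3 had a member, or 7.5% (95% exact interval 1.57 to 20.4). They were Fgf21, Ddit4 and Psph, the last enzyme of serine synthesis, at 3.38. Of the same 40 genes, 19 had a peak over the start and 10 one just downstream. Of 28 amino acid and one-carbon enzymes, 2 had a member, Gpt2 and Psph. Of 21 aminoacyl-tRNA synthetases, 1 had one, the tryptophanyl enzyme gene Wars at 3.82 beside 4.0 over the start of another transcript. Of 22 amino acid transporters 1 had one, Slc7a6 at 2.29. Of 26 genes of the ER stress and eIF2alpha pathway, 1 had one, Dnajc3, which encodes an inhibitor of eIF2 kinases, at 3.42. Chac1, Asns, Trib3 and Ddit3 had their peak over the start, at 38.4, 10.1, 9.18 and 22.8, and Atf4 and Mthfd2 had theirs just downstream, at 3.22 and 12.5, so these named targets had none upstream.

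Among 43 basic leucine zipper factors, 3 had a member, which were Maf at 4.19, Fosl2 at 2.68 and Crem at 2.61. Of 40 genes of mTORC1 and autophagy, 3 had one, which were Ddit4, the leucine sensor family gene Sesn1 at 3.23 and the autophagy gene Gabarap at 2.11. Of 62 cytosolic ribosomal proteins, 3 had one, among them Rpl13a at 1.89, and 24 had a peak over the start. Of 36 translation factors, 2 had one, Eif5 at 2.21 and Eif3d at 2.18. Hspa9, a mitochondrial chaperone gene, was the 1 of 31 genes of mitochondrial stress and import, at 2.79. Ptbp3 was the 1 of 37 RNA splicing factors, at 3.34. Glycolysis had 0 of 20 (upper limit 16.8%).

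Of 30 core genes of regulatory T cells, 1 had a member, or 3.33% (0.0844 to 17.2) beside the 1.26% of all protein-coding genes. This was Lrrc32, which encodes the surface anchor of latent TGF-beta, at 3.64. A peak over the start was present in 12. Foxp3, Il2ra, Ctla4, Icos and Ikzf2 had no member, but each had a peak in another promoter class. Over the start these were 9.6 at Icos, 5.47 at Il2ra, 3.57 at Ctla4 and 3.46 at Foxp3. Just downstream they were 4.97 at Foxp3, 3.62 at Ctla4 and 3.04 at Ikzf2. Of 33 effector genes, 2 had one, Maf and Nr4a1, the latter at 2.32 with a −log10 q of 1.32. Of 37 genes of T cell receptor signalling and NF-kB, 2 had one, the kinase gene Prkcq at 3.97 and Nfkb2 at 3.51, and of 35 cytokine and STAT genes 2, Stat3 at 3.12 and Cish, a STAT5 feedback gene, at 2.54. Of 32 genes of lymphocyte recirculation and quiescence, 3 had one, which were Klf6, the antiproliferative gene Btg1 at 2.78 and Klf13, and 21 had a peak over the start. Chromatin regulators had the highest share, 4 of 38 or 10.5% (2.94 to 24.8), with the demethylase gene Kdm6a at 3.11, the remodeller gene Arid1a at 2.95, the acetyltransferase gene Ep300 at 2.67 and Brd2 at 2.56. All 4 of these lay under the 3.30 median of all peaks. Markers of B cells and of NK and CD8 T cells had 0 of 15 each (upper limit 21.8%), myeloid markers 0 of 20 (16.8%) and neuronal genes 0 of 22 (15.4%). At a base rate of 1.26%, a count of 0 in lists of this size shows no depletion.

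**Figure D5:**
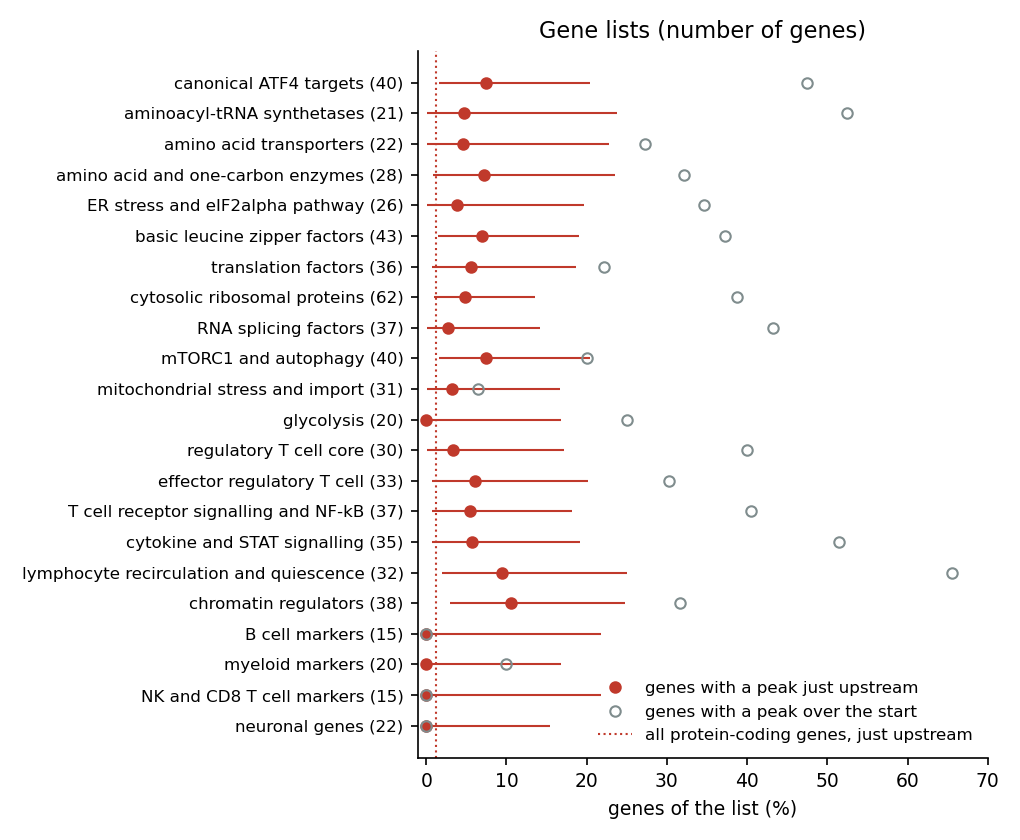
Share of each gene list, in percent, with a peak just upstream (red, with its 95% exact interval) and with a coding promoter peak over the start (open grey circles). The dotted line is the 1.26% of all protein-coding genes with a peak just upstream. Red points run from 0 to 10.5%, and circles lie to the right of them in all lists but the 3 without any such peak.

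The peak was the only one assigned to its gene in 192 of 278 members, or 69.1% (95% exact interval 63.3 to 74.4). The share was 79.1% for peaks over the start and 66.0% for those downstream. The gene also had a coding peak over the start in 46, or 16.5%, and one just downstream in 24. This match is by gene, and the same transcript had a peak over its start in only 15 members, or 5.4%. In the rest of the 46, that peak lay over the start of another transcript of the gene. In those 46 genes the strongest peak over a start was the stronger in 32 and the upstream one in 14. The ratio was highest at Stk40, where the upstream fold was 4.55 times the other. Genes with the opposite order were chosen after their values were seen. They include Polr2a, the largest RNA polymerase II subunit gene, with 2.09 upstream and 13.5 over the start, Akna with 2.12 and 13.5, and the ubiquitin gene Ubb with 2.59 and 9.07.

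Not every member lay outside gene bodies. In all, 96 members, or 34.5%, lay inside the span of their own gene, ahead of a start further in, and their median fold enrichment was 3.02 against 2.9 for the other 182. XM_ transcripts accounted for 36.0% of the members (30.3 to 41.9), against 25.3% of peaks over the start and 23.1% of those downstream. The medians of NM_ and XM_ members were 2.92 and 2.96. Another gene was overlapped by 33 members, or 11.9%, and by 19, or 6.83%, a protein-coding one. Over the start these shares were 17.5% and 9.98%, and downstream 8.32% and 3.51%. Brd2 stood over H2-DMa, and the 1330 bp peak at 3.60 assigned to Iqcn over the AP-1 gene Jund. Iqcn, like the genes in the next paragraph other than Psph and Sesn1, was chosen after its values were seen. The authors' assignment by nearest start does not tell which gene such a peak serves.

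A gap between 2 genes that start in opposite directions was a further setting. An opposite start listed within 1000 bp upstream was found for 20 members, or 7.19% (4.45 to 10.9), and for 12.5% of peaks over the start and 12.6% of those downstream. All 20 members lay between both starts, with a median fold enrichment of 2.93 (range 2.05 to 4.22). Assignment by nearest start largely fixes this position, since a peak that reached the opposite start would be assigned to it. The same assignment takes such peaks out of the members, so the 7.19% is not on a like basis with the 12.5% and 12.6%. Psph faced the chaperonin gene Cct6a across 425 bp, Sesn1 faced Cep57l1 across 706 bp, and Gart faced Son across 852 bp. Pbrm1, a chromatin remodeller gene, faced Gnl3 across 574 bp.

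A group of 7 members lay within 45.7 kb on chromosome 4, between 88757522 and 88803201. They were assigned to Gm13286, Gm13283, Gm13289, Gm13272, Gm13279, Gm13285 and Gm13287, with fold enrichments from 2.29 to 3.3 and −log10 q from 3.53 to 7.28. RefSeq lists limitin, an interferon, as a synonym of Gm13285, and the gene Ifnz lies in the same array with a peak of 3.52 over its start. Within 50 kb of the group the list held 18 peaks, all of them coding promoter peaks of this array. Of their promoters of 300 bases, those of Gm13272, Gm13285 and Gm13287 were identical, that of Gm13283 was 99.0% identical to them, and those of Gm13279 and Gm13289 were 99.3% identical to each other. Both runs below are shown for this near identity. They cover 209 bases from 250 bases before the start, at chr4:88800070-88800278 for Gm13285 and chr4:88760524-88760732 for Gm13283 (both plus strand), and capitals mark the 3 bases that differ.
Gm13285: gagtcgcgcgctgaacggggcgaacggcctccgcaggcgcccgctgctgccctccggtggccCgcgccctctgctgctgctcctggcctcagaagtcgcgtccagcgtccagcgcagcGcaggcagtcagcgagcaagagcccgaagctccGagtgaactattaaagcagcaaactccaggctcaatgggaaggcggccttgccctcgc
Gm13283: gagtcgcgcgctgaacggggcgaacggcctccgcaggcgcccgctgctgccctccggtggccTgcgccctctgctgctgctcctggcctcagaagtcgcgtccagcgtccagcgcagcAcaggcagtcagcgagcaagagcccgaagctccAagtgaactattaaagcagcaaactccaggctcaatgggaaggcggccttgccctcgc

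Fold enrichment was 2.29 at Gm13272, 2.68 at Gm13285 and 3.04 at Gm13287, whose promoters do not differ in these bases. Reads that fall wholly within identical stretches cannot be told apart, and the sources used here do not say how they were placed, so the values of these 3 peaks are uncertain. How uniquely reads could be placed at the other 4 was not measured. Without all 7 members of the group, the median fold enrichment of the other 271 members was 2.93. The genes of this array were chosen after their values were seen.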

How the data were processed

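Chromatin of CD4+CD25+ cells was immunoprecipitated with an ATF4 antibody in 2 samples, with 2 inputs at 1% of the material. Per the submitters' processing notes, Trim Galore, Bowtie2, MACS2 and deepTools were used on build mm10. Their versions, the pooling of replicates and the use of inputs are not stated there. Each peak has the authors' deposited fold enrichment at its summit and −log10 q, as 1 value per peak with no sample. Annotation class, transcript and distance are also the authors' deposited values. Starts were raised by 1, and the deposited distance was then recovered in 4544 of 4544 peaks.

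The members and lists were chosen with earlier results of these data known. The 278 members were described by counts, medians and quartiles, with exact Clopper-Pearson intervals at 95% for shares, which cover counting error only. Differences between classes were not tested. The RefSeq tables are of GRCm38.p6, and of 684 list entries 681 matched by symbol and 2 by synonym. Motifs were searched where at least 100 bases of a peak were covered, and the reference was the same positions in all listed promoters. The genes named are those of the 25 strongest members by fold and the 10 by −log10 q, up to 4 per list, those at the edges of the rule, those with more than 1 member and a fixed set. Some genes that this rule names are not reported here. The parsing and the motif search were tested on simulated data. The work used Python 3.11.15 with pandas 2.3.3, numpy 2.4.6, matplotlib 3.10.9 and scipy 1.17.1.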

Additional observations from a re-analysis of the deposited data

How the results depend on the processing

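Of 90 recomputed values, 60 stayed near the reported one. With NM_ transcripts alone there were 178 members, and with a −log10 q of at least 3 the median fold enrichment rose to 3.14. The median of members minus that of peaks over the start was −0.377 by fold enrichment and −2.31 by −log10 q. Against peaks downstream it was −0.00259 by fold enrichment and 0.93 by −log10 q, so that order depends on the measure. The share over another gene was 6.83% with protein-coding genes alone, and the share with a peak over the start was 5.4% for the same transcript.

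At a −log10 q of at least 3, the count of list genes with a member fell to 0 for amino acid transporters and to 1 each for translation factors, effector regulatory T cell genes and cytokine and STAT signalling. With members at or above the median fold enrichment of all peaks, it fell to 1 each for basic leucine zipper factors, ribosomal proteins, mTORC1 and autophagy, effector genes and recirculation and quiescence. It fell to 0 for transporters, translation factors, mitochondrial stress, cytokine and STAT signalling and chromatin regulators.

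Within 100 bp of the summit, in the 39 members whose bases allow it, TGATGCAA, AP-1 and NRF1 stood at 0% (0.637%, 5.57% and 0.625% of all promoters there) and RUNX at 20.5% (11.5%), which turns RUNX from below the reference to above it. Over whole promoters of 138 member starts, an alternative chosen after seeing the data, the shares were 33.3% for the core (all promoters 20.8%), 7.25% for C/EBP (10.8%), 33.3% for the CCAAT box (37.4%), 73.2% for the GC box (35.7%), 23.9% for ETS (8.86%) and 9.42% for the E-box (7.15%, so that it too turned to above the reference). That window is longer. No paired analysis was possible because the list holds no values per sample, and no replicate could be left out for the same reason. The depth of the samples is unknown, which limits every value here.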
